A study of Mus musculus with 4 samples.

Results

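The genes described here bind, make, break down or respond to retinoids, the derivatives of vitamin A. They were 9 named genes: the binding proteins Crabp1, Crabp2 and Rlbp1, the enzymes Aldh1a3 and Cyp26b1, and the receptors Rara, Rarb, Rarg and Rxra. Every probe set (a group of short probes for 1 transcript) whose annotation names exactly 1 gene, that gene being one of the 9, was taken, which gave 14 of 45037 probe sets. The group was chosen by its scaled signals in these same 4 arrays, E14.5 against E11.5, in particular because Crabp2 and Rlbp1 moved in opposite directions. The differences of the 9 genes between the groups are therefore a description and carry no test.

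RNA came from neuroepithelial cells, the dividing precursors of forebrain neurons and glia, isolated from the telencephalon of ICR mouse embryos. In the E11.5 group, 2 arrays held cells of embryonic day 11.5 after 1 day of culture. In the E14.5 group, 2 arrays held cells of embryonic day 14.5 after 4 days of culture. Both groups grew in N2-supplemented DMEM/F12 medium with 10 ng/ml basic FGF, on dishes coated with poly-L-ornithine and fibronectin, and no retinoid is named among the culture reagents. Embryonic age and time in culture changed together, so their parts in any difference cannot be told apart. Nothing in the labels says whether replicates came from separate cultures or litters, so the spread between the 2 arrays of a group may be technical.

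Retinoic acid is made from retinol in successive oxidations, the last by aldehyde dehydrogenases such as Aldh1a3, and is removed by Cyp26 enzymes. Crabp1 and Crabp2 carry it in the cytoplasm, and Crabp2 is known to hand it to nuclear receptors. Rlbp1, also called CRALBP, carries retinal and retinol of the visual cycle rather than retinoic acid and is known from the retinal pigment epithelium and Müller glia. The receptors Rara, Rarb and Rarg bind DNA as pairs with an RXR such as Rxra, typically at direct repeats of a short core motif. In the developing forebrain, retinoic acid is known for its part in neuron formation, and the meninges are one of its sources.

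A promoter of Rarb is shown because it carries the textbook binding element of these receptors. A promoter of Rlbp1 is shown because Rlbp1 is the member with the largest difference between the groups. RefSeq promoter windows on build GRCm38.p6, from 250 bases before to 50 bases after a start site, were found for 7 of the 9 genes, 12 windows in all. Crabp2 and Aldh1a3 were not matched. Windows were searched on both strands for direct repeats of the core motifs AGGTCA or AGTTCA or GGGTCA or GGTTCA with 1, 2 or 5 bases between the copies. Of the 12 windows only that of Rarb held such a repeat, with a spacer of 5, from base 53 to base 37 before the start site. Among all 32851 windows of the same length 0.0974% held a repeat with that spacer and 0.588% any of the 3 repeats. A single core motif on either strand was found in 6 of the 12 windows, against 43.7% of all windows. Every repeat also contains single core motifs, and a match is a match of letters, not a bound site. The 250 bases before each start site follow, 5′ to 3′ on the gene's strand, with capitals marking the repeat in Rarb and the single core motif in Rlbp1. The Rarb stretch is chr14:16575477-16575726 and the Rlbp1 stretch chr7:79387028-79387277, both on the minus strand. Each lies inside the annotated span of its gene (chr14:16430839-17082331 and chr7:79374865-79392250), so each belongs to a start site within that span.
Rarb: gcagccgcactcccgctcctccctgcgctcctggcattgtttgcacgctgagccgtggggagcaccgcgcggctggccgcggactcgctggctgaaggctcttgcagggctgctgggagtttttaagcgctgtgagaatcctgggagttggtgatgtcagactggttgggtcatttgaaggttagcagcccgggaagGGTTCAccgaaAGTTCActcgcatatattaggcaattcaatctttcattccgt
Rlbp1: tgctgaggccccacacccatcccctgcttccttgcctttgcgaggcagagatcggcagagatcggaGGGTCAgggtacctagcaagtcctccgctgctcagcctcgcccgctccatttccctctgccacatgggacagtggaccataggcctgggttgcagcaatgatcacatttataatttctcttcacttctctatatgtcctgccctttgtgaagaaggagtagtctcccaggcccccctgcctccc
In the Rlbp1 stretch a single GGGTCA starts at base 184 before the start site.

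The deposited signals are linear intensities. The 2% trimmed mean ran from 103 to 252 over the 4 arrays, and the E14.5 arrays were the dimmer ones, so each array was scaled to a common trimmed mean of 174. All signals below are scaled values, and each difference is E14.5 minus E11.5 on the log2 scale after adding a constant of 12.8, the pseudocount. All 16 markers of telencephalic neuroepithelium that had a probe set had a mean signal above 27.3, the minimum for testing, with Fabp7 and Vim bright in both groups. Of these 16, 4 were higher at E14.5, among them Hes5 (1.81), and 6 lower, among them Emx1 (-1.77), with a median difference of -0.31. Across the 27022 probe sets that reached this minimum, 23.7% passed an adjusted p of 0.05 in limma, 11.1% as higher and 12.6% as lower at E14.5. The groups did not overlap at 61.9% of these probe sets. With 2 arrays per group, the number of arrays limits the precision of every value.

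Among the binding proteins, Crabp2 was present at E11.5 and near the lower end of the scale at E14.5. Its signal was 260 and 236 at E11.5 against 2.59 and 17.9 at E14.5. The groups were far apart, and the 2 low values differed from each other more than the 2 high ones did. The mean went from 248 to 10.3, a ratio of 24.2, and the log2 difference was -3.58 ± 0.34 (standard error, n = 2 arrays a group; every ± below is such an error). Because the E14.5 mean lies below the pseudocount, this size depends on it: the difference was -4.79 with an eighth of the constant and -2.49 with the median signal as the constant. Crabp2 reached the minimum for testing through its E11.5 signal alone.

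Crabp1, the other cytoplasmic carrier of retinoic acid, differed less. Its signal was 136 and 112 at E11.5 against 101 and 46.6 at E14.5. Both E14.5 values lay below both E11.5 values, but the 2 E14.5 arrays were further apart than the groups were at their nearest. The log2 difference was -0.73 ± 0.31, from a mean of 124 to 73.7. Its size rested on E14.5 replicate 2, where Crabp1 was dimmer: the difference was -0.26 without that array and -1.20 without E14.5 replicate 1.

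Rlbp1 went the other way. Its signal was 36.5 and 57.4 at E11.5 against 1592 and 1360 at E14.5. The groups were separated by 4.29 on the log2 scale at their nearest, against 0.51 and 0.22 between the arrays of a group. The mean was 31.4-fold higher, 1476 against 47.0, and the log2 difference was 4.66 ± 0.20. In bulk RNA such as this, more cells of a type and more RNA per cell cannot be told apart.

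**Figure D1:**
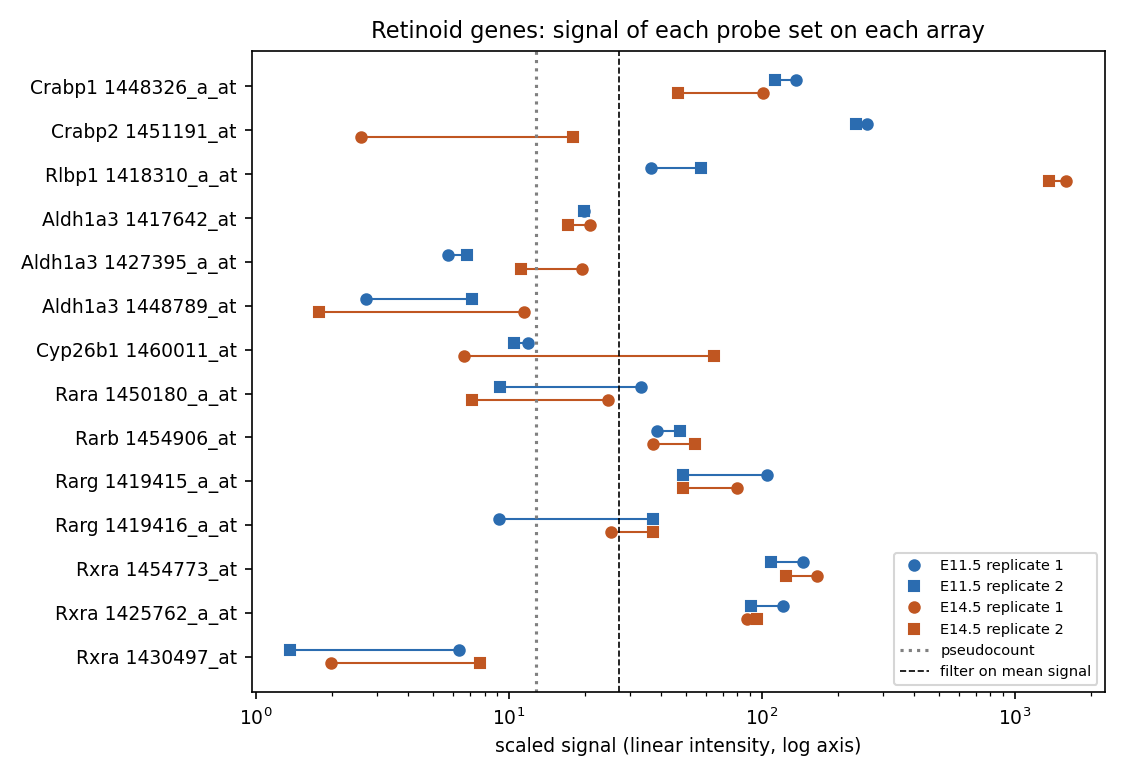
Scaled signal (linear intensity on a log axis) of the 14 probe sets of the 9 retinoid genes on each array; blue marks E11.5 and orange E14.5, circles replicate 1 and squares replicate 2, and lines join the arrays of a group. The arrays of Crabp2 (260 and 236 against 2.59 and 17.9) and Rlbp1 (36.5 and 57.4 against 1592 and 1360) lie in separate ranges, while those of the receptors overlap.

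Both enzymes had signals below the minimum for testing at every probe set. Aldh1a3, which makes retinoic acid, was represented by 3 probe sets. The brightest had 19.7 and 19.8 at E11.5 against 20.9 and 17.1 at E14.5, values that overlap (-0.04 ± 0.33). A second had 5.74 and 6.81 at E11.5 against 19.4 and 11.2 at E14.5 (0.54 ± 0.29). This was the only member below the minimum whose groups did not overlap, and 3 of its 4 values were below the pseudocount. The third ran from 1.76 to 11.5 over the 4 arrays, below the pseudocount throughout. The 3 probe sets thus did not show the same pattern.

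Cyp26b1, which breaks retinoic acid down, had 11.9 and 10.5 at E11.5 against 6.61 and 64.8 at E14.5. The E11.5 values lay between the E14.5 values. The log2 difference of 0.70 ± 0.62 came from E14.5 replicate 2 alone, since it was -0.30 without that array.

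The receptors had overlapping groups at every probe set, with wide intervals. Rarb, itself a textbook target of retinoic acid through the repeat printed above, had 38.4 and 47.5 at E11.5 against 37.0 and 54.4 at E14.5. The groups overlapped, with a log2 difference of 0.06 ± 0.31 and a 95% interval from -0.64 to 0.75. A change within that interval could not be told from none with these arrays.

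Rxra, the partner of the other receptors, had 3 probe sets. The brightest gave 145 and 108 at E11.5 against 166 and 125 at E14.5 (0.18 ± 0.23, 95% interval -0.33 to 0.69). The next gave 122 and 90.5 at E11.5 against 87.2 and 95.8 at E14.5 (-0.18 ± 0.23, 95% interval -0.69 to 0.34). These 2 probe sets had opposite signs, both with overlapping groups. The third had 1.37 to 7.68 over the 4 arrays, below the pseudocount on all of them.

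Rarg had 2 probe sets. One gave 105 and 48.7 at E11.5 against 79.9 and 48.6 at E14.5 (-0.17 ± 0.35), where both arrays numbered 1 were above both numbered 2. The other gave 9.14 and 37.0 at E11.5 against 25.3 and 37.0 at E14.5 (0.40 ± 0.47). Its mean of 27.1 was just below the minimum of 27.3, and its sign was opposite to that of the first. Rara was dim, with 33.2 and 9.22 at E11.5 against 24.7 and 7.14 at E14.5 (-0.22 ± 0.49). Replicate 1 was the brighter array of Rara in each group, and the groups overlapped.

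Of the 14 probe sets, 7 reached the minimum for testing, from 6 of the 9 genes; Rara, Aldh1a3 and Cyp26b1 had none. Of these 7 probe sets 2 passed the threshold, Crabp2 as lower and Rlbp1 as higher, beside the 23.7% of all probe sets given above. The groups did not overlap at 3 of the 7, namely these and Crabp1, beside 61.9% of all. Rlbp1 was the 1 of them that was higher, beside 30.1% of all, and the other 2 were lower, beside 31.9%. Since this contrast was known when the genes were chosen, nothing is read from these counts. The median log2 difference of the 7 was -0.17, against -0.01 over all probe sets tested. Among the tested receptor probe sets, all 4 had overlapping groups.

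**Figure D2:**
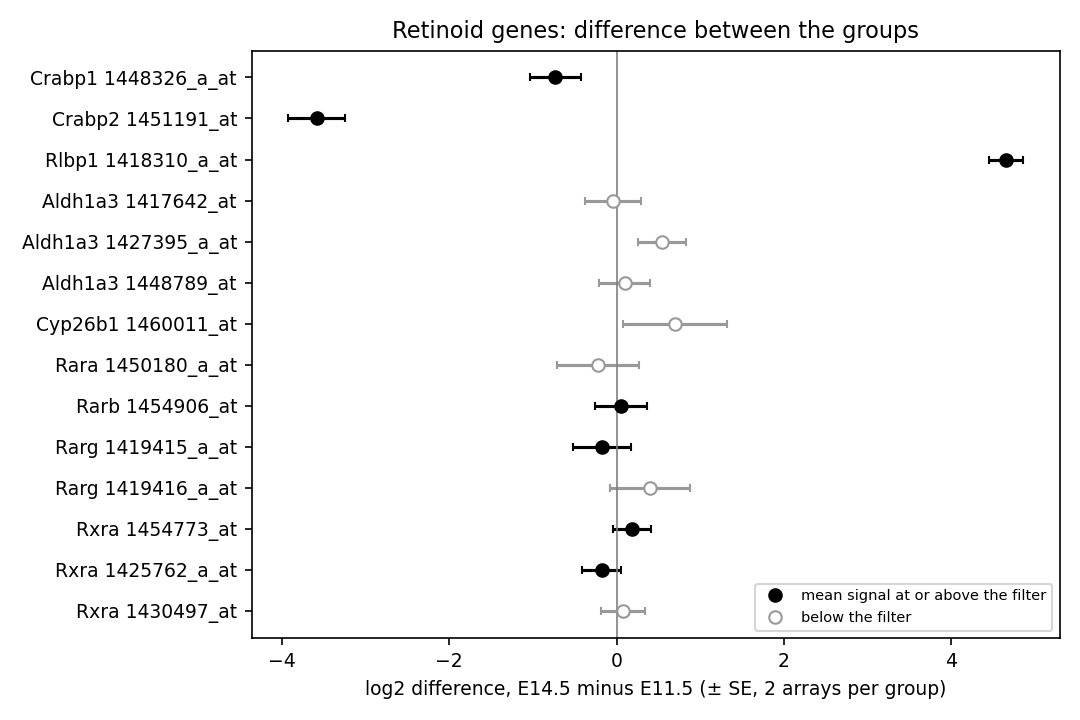
Log2 difference, E14.5 minus E11.5, of each of the 14 probe sets, with bars of 1 SE from the limma fit (2 arrays per group); filled points had a mean signal at or above 27.3 and open points did not. Rlbp1 at 4.66 and Crabp2 at -3.58 lie at the ends and the receptors lie near 0.

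Of 12 other settings, 4 change only the test or the probe sets tested and cannot move a difference. Over the other 8 (scaling, pseudocount and each array left out) the 3 binding proteins kept their signs. The difference of Crabp2 ran from -4.79 to -2.49, that of Rlbp1 from 3.96 to 4.96 and that of Crabp1 from -1.39 to -0.26. The signs of Rarb, of both tested Rxra probe sets and of the tested Rarg probe set turned under at least 1 setting. For the receptors no direction is therefore given.

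**Figure D3:**
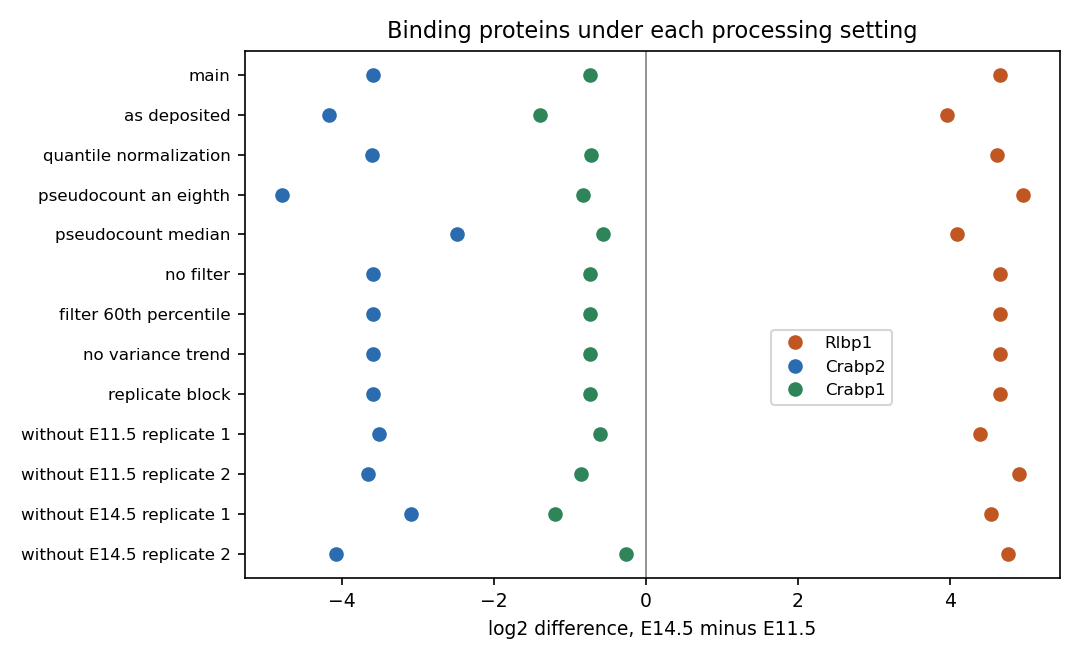
Log2 difference, E14.5 minus E11.5, of Rlbp1, Crabp2 and Crabp1 under the reported setting (main) and 12 other settings, 1 point each; the filters, the variance trend and the replicate block cannot move a point. Each gene stays on its side of 0, with Crabp1 nearest to it at -0.26 without E14.5 replicate 2.

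The genes nearest to Crabp2 and Rlbp1 in profile were sought by Euclidean distance over the 4 arrays, after subtracting each gene's own mean log2 signal. Nearest to Crabp2 were St18 (distance 0.41), Resp18 (0.42) and Zfhx3 (0.52). St18 is a zinc finger transcription factor of developing neurons, and it went from a mean of 334 to 10.3. Nearest to Rlbp1 were Ppp1r3c (0.24), Bcas1 (0.30) and Matn4 (0.30). Bcas1, which also stands in the oligodendrocyte precursor list used below, went from 51.3 to 1361, and Ppp1r3c, a regulator of glycogen synthesis, from 44.4 to 1509. With 4 arrays in 2 groups, such nearness mostly restates that genes share the size of their difference.

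The rest of the pathway was taken from 5 lists of textbook genes, each gene standing for its brightest tested probe set. Together they held 95 genes, of which 83 had a probe set naming them alone and 54 reached the minimum for testing. Of these 54, 11 were higher at E14.5 and 2 lower, or 20.4% and 3.7%, where 14.3% and 13.6% of all 12952 genes tested were, 27.8% in either direction. The median log2 difference was 0.21, against 0.03 over all genes. The count of higher genes fell to 5 without E14.5 replicate 2, to 7 without the signal minimum and to 3 without the trend of variance on signal. Every adjusted p below is from limma over all 27022 probe sets.

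Of 5 other genes of retinoid binding and transport, 1 was higher and none was lower. Fabp5, a fatty acid binding protein that can also carry retinoic acid to the nuclear receptor Ppard, gave 3925 and 3776 at E11.5 against 5535 and 5280 at E14.5. The groups did not overlap, and the difference was 0.49 ± 0.11 (adjusted p = 0.011). This call was lost under 6 of 13 other settings, among them leaving out either E14.5 array (0.45 and 0.52) and quantile normalization (0.19). Rbp3 (41.3 to 62.6), Ttr (47.4 to 23.2), which binds the retinol carrier Rbp4 in blood, and Stra6l (34.1 to 33.1) did not pass. Neither did Rbp4 (31.8 to 33.2), named after its values were seen. Ttr passed as lower without E14.5 replicate 1 (-1.93).

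Of 12 other genes of synthesis, storage and breakdown, 2 were higher and none was lower. Dhrs3, a reductase that turns retinal back into retinol and is a textbook target of retinoic acid, had 4.68 and 30.5 at E11.5 against 119 and 103 at E14.5. The groups did not overlap, and the difference was 2.17 ± 0.41 (adjusted p = 0.0038). Its size moved with the E11.5 arrays, to 1.51 without replicate 1 and 2.82 without replicate 2, and with the pseudocount, from 1.39 to 2.98. Dhrs7, a dehydrogenase of the same family, went from 23.7 and 27.4 to 262 and 341 (3.02 ± 0.23, adjusted p = 1.53e-05). Both calls held under the alternative settings tried, 13 for Dhrs7 and 12 for Dhrs3. Dhrs3 and Dhrs7 reached the minimum for testing through their E14.5 signal alone, with E11.5 means of 17.6 and 25.5. Adh5 (1792 to 2049), Dgat1 (335 to 423) and Rdh11 (381 to 311) did not pass. Of the other enzymes of retinoic acid, Aldh1a1, Aldh1a2 and Cyp26a1 were below the minimum, with group means of 2.11 to 10.8. The retinol dehydrogenase Rdh10 was above it and did not pass (151 to 135). Aldh1a1, Aldh1a2, Cyp26a1 and Rdh10 were named after their values were seen.

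Of 11 other nuclear receptors, 4 were higher and 1 was lower. Nr4a2, an orphan receptor that can pair with an RXR and is known from dopamine neurons, fell from 217 and 165 to 31.5 and 38.2 (-2.09 ± 0.24, adjusted p = 0.000218). Averaged over its 5 tested probe sets, of which 1 had the opposite sign, the difference was -0.85. The retinoid-related orphan receptors Rorb (1.43 ± 0.31) and Rora (1.10 ± 0.25), which bind DNA without an RXR, rose. Rorb differed between the E11.5 arrays, at 152 and 64.8, and stood at 257 and 335 at E14.5; its difference was 0.89 without E11.5 replicate 2. The call of Rorb was lost with no scaling (0.72) and without the variance trend, and that of Rora with no scaling (0.44) and with its probe sets averaged (0.79). Ppard, a partner of the RXRs, rose from 63.1 to 113 (0.74 ± 0.24, adjusted p = 0.0488). With no scaling (0.06), without the signal minimum and without the variance trend, Ppard did not pass. Its call was lost without any one of E11.5 replicate 1 (0.58), E14.5 replicate 1 (0.82) and E14.5 replicate 2 (0.66). The thyroid hormone receptor Thra, named after its values were seen, rose from 965 to 1596 (0.71 ± 0.14). Rxrb (373 to 441), Nr4a1 (117 to 125) and Thrb (44.2 to 61.5) did not pass.

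Of 14 corepressors and coactivators, which switch the receptors between silencing and activation, 3 were higher and none was lower. Tbl1xr1 and Tbl1x, subunits of the corepressor complex, had differences of 0.58 ± 0.13 and 0.39 ± 0.12, and the coactivator Ncoa1 had 0.53 ± 0.15. The call of Tbl1x was lost under 11 of 13 other settings, and 2 of its 3 tested probe sets had the opposite sign. That of Ncoa1 was lost without E11.5 replicate 2 (0.43) and without either E14.5 array (0.53 and 0.52), and that of Tbl1xr1 without E14.5 replicate 2 (0.56). The calls of Ncoa1 and Tbl1xr1 were also lost with no scaling (-0.23 and -0.18) and without the variance trend. Tbl1xr1 did not pass with its probe sets averaged either (0.37). The acetyltransferases Crebbp (946 to 938) and Ep300 (887 to 887) and the deacetylase Hdac3 (848 to 864) did not pass.

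Of 14 textbook target genes of retinoic acid, 2 were higher and 1 was lower. Besides Dhrs3, the homeobox gene Meis1 was higher, from 234 to 352 (0.56 ± 0.16, adjusted p = 0.0304). Its call was lost when E11.5 replicate 2 (0.50) was left out, and when E14.5 replicate 2 was (0.49). It was also lost with its probe sets averaged (0.45), without the signal minimum, without the variance trend and with no scaling (-0.18). Isl1, a transcription factor of ventral and motor neurons, was lower (-5.07 ± 0.23, adjusted p = 9.35e-07), with 495 and 506 at E11.5 against 2.68 and 2.37 at E14.5. Both E14.5 values lie below the pseudocount, which sets the size: it ran from -6.93 to -3.61 over other settings. Isl1 reached the minimum for testing through its E11.5 signal alone, with an E14.5 mean of 2.52. Meis2 (1418 to 1331), Nrip1 (343 to 419) and Egr1 (194 to 209) did not pass. Of the 14 target genes 11 did not pass, and the median difference of the 14 was 0.25.

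**Figure D4:**
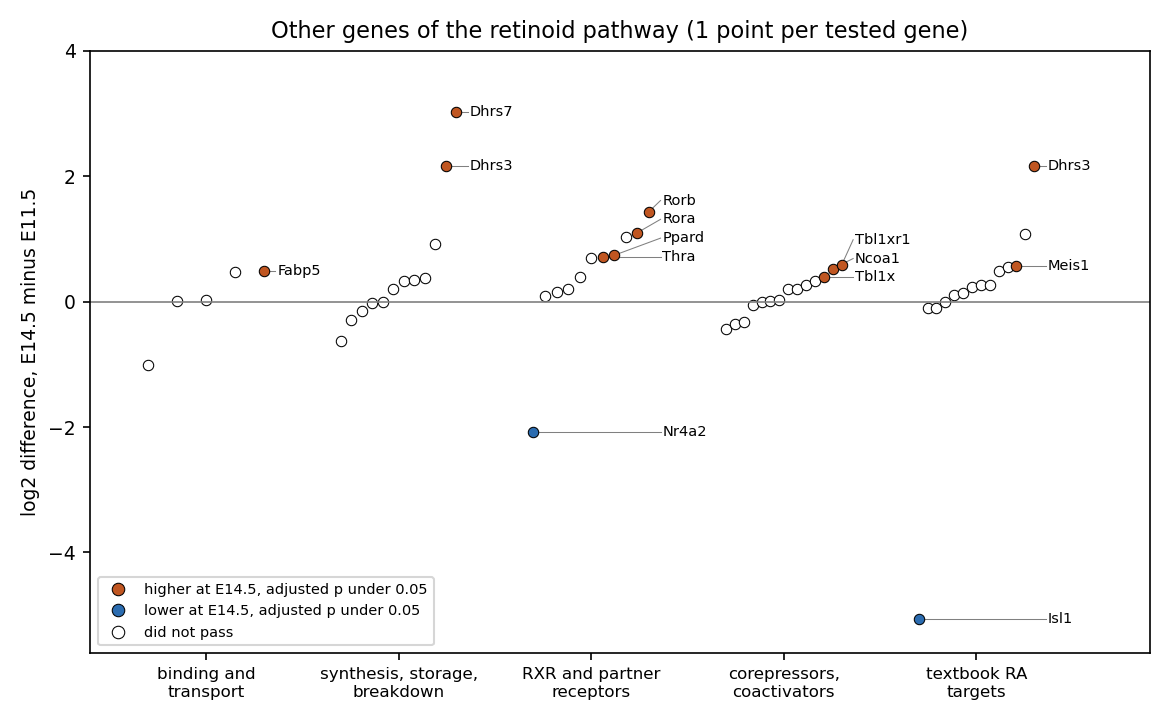
Log2 difference, E14.5 minus E11.5, of each tested gene in the 5 lists of other retinoid pathway genes, 1 point per gene; orange points were higher and blue points lower at an adjusted p of 0.05 in limma and are named, white points did not pass, and a gene may stand in 2 lists. Most points lie near 0, with Dhrs7 at 3.02 highest and Isl1 lowest, at -5.07 with the pseudocount used.

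Markers of several cell types moved between the same groups. Neuron markers were lower at E14.5 for 16 of 17 tested genes and higher for none, with a summed signal of 18461 to 19576 on the E11.5 arrays and 5609 to 6000 on the E14.5 arrays. Oligodendrocyte precursor markers were higher for 9 of 9, summing to 770 to 977 at E11.5 and 19930 to 22299 at E14.5. Astrocyte markers were higher for 11 of 13 and lower for none (7213 to 7667 against 21499 to 26335). Some called markers reached the minimum for testing through 1 group alone. Cspg4, Gpr17 and Nkx2-2 did so through E14.5, with E11.5 means of 6.92, 2.03 and 23.1. The astrocyte markers Gfap, Aqp4 and S100b did too, with 22.2, 21.3 and 11.1. The neuron marker Tbr1 did so through E11.5, with an E14.5 mean of 23.7. These 7 were named after their values were seen. The part of these cell types in the differences of Crabp2 and Rlbp1 was not tested.

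Meningeal and mesenchymal markers, which cover a known source of retinoic acid, were lower for 3 of 10 and higher for 1. The lower ones were Lum and the collagens Col1a2 and Col3a1, the collagens named after their values were seen, and Ptgds rose from 62.1 to 900.2. Their sums, which Igfbp2 dominates, were 4296 to 4788 at E11.5 and 5115 to 6222 at E14.5. Microglia and macrophage markers were higher for 8 of 10 and lower for none (260 to 331 against 1824 to 1861). Of the higher ones, C1qa, C1qb, C1qc, Ptprc and Fcer1g reached the minimum for testing through their E14.5 signal alone. Their E11.5 means were 6.17, 18.8, 6.23, 17.1 and 18.2, and these genes were named after their values were seen.

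Markers of retinal pigment epithelium and photoreceptors were mostly dim. They include genes of the visual cycle, in which Rlbp1 is best known, and also pigment genes and transcription factors. Müller glia had no marker list of their own, so the values of these markers do not describe them. Of 15 with a probe set 6 reached the minimum, and 1 of these, the pigment cell gene Pmel, passed, as higher (38.5 to 102). Its E11.5 arrays differed, at 61.7 and 15.3, and its call did not hold when E11.5 replicate 2 was left out (0.61), nor with E14.5 replicate 1 left out (1.10), nor under 4 other settings. The median difference of the 6 was 0.63. Among them the retinol dehydrogenase Rdh5 had 37.2 and 24.4 at E11.5 against 79.1 and 58.7 at E14.5. It did not pass (0.91 ± 0.31, adjusted p = 0.0594). The visual cycle isomerase Rpe65 had group means of 11.9 and 22.2, without overlap. The acyltransferase Lrat, which makes retinol esters, had 2.78 and 18.4, and all these means were below the minimum. The E14.5 value of Lrat came from 1 array (2.49 and 34.4), and its groups overlapped. Rdh5, Rpe65 and Lrat were named after their values were seen. Erythroid markers were lower for 2 of 3 (387 to 807 against 61.9 to 64.6), choroid plexus and ependymal markers for 1 of 5 (499 to 554 against 174 to 236), with none higher in either list. The 2 lower erythroid markers, Hbb-y and Hba-x, reached the minimum through their E11.5 signal alone (E14.5 means of 12.3 and 8.87). Endothelial markers were higher for 2 and lower for 1 of 4 (227 to 288 against 308 to 360). Plvap, 1 of the higher ones, reached the minimum through its E14.5 signal alone (10.0 to 91.2). Another 7 were below the minimum. Of these, Cdh5 (21.8 to 3.65), Cldn5 (39.7 to 12.3) and Emcn (31.4 to 7.73) were lower without overlap, and the rest overlapped. Cdh5, Cldn5 and Emcn were named after their values were seen. The part of these cell types in the retinoid genes' values was not tested.

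**Figure D5:**
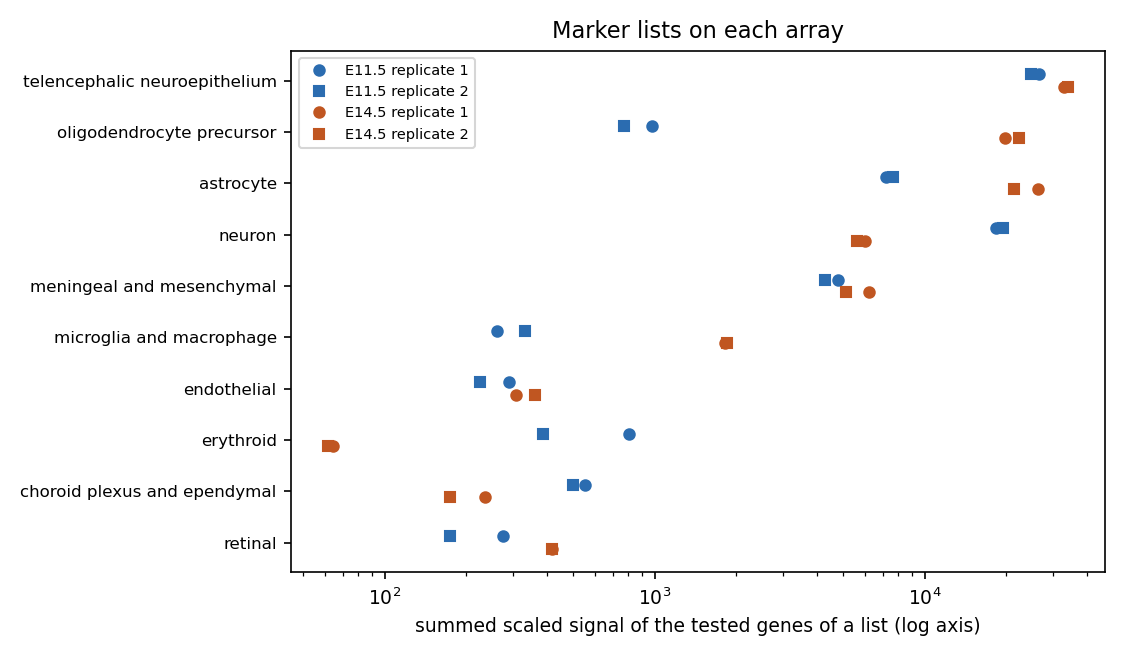
Summed scaled signal (log axis) of the tested genes of each marker list on each array; blue marks E11.5 and orange E14.5, circles replicate 1 and squares replicate 2. The sums of oligodendrocyte precursor (770 to 977 against 19930 to 22299) and neuron markers (18461 to 19576 against 5609 to 6000) lie apart in opposite directions.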

How the data were processed

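The deposited table holds 1 linear intensity per probe set and array, and the submitters' processing notes name GCOS, software of the array maker; its version and settings and any build were not given in the sources used here. Of 45101 probe sets 64 were controls and were set aside; of the rest 34945 named 1 gene, 932 several and 9160 none. Each array was multiplied by 1 factor (0.691 to 1.68) to a common 2% trimmed mean, probe sets with a mean under the 40th percentile (27.3) were not tested, and the 25th percentile of all values (12.8) was added before log2. Differences were fitted with limma 3.58.1 in R 4.3.3 (lmFit, eBayes letting the variance follow signal, 2 residual and 7.99 prior degrees of freedom) over 27022 probe sets with Benjamini-Hochberg adjustment at 0.05; the script was tested on simulated data. Errors of probe sets under the minimum come from the fit without it. Labels do not say whether replicates are separate cultures, so p-values rest on array-to-array spread alone, possibly technical.

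The members and gene lists were chosen with earlier results of these data known. Genes of other lists were named from a rule, save those said to be named after their values were seen: up to 4 passing genes by size and 3 others by signal per pathway list, and up to 2 of each per marker list, of which only some are named. Of the 95 pathway genes 83 had a probe set naming them alone; the others were not analysed here. Alternatives were other scalings, pseudocounts, filters, no variance trend, the replicate block, each array left out, and averaged probe sets.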

Additional observations from a re-analysis of the deposited data

How the results depend on the processing

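Left as deposited, the arrays differ in brightness, and the median difference of all probe sets was -0.70, against -0.01 when scaled. With no scaling 412 probe sets were higher and 4790 lower, against 3012 and 3396, and 2 and 4 other pathway genes. The differences of Fabp5 (-0.29), Tbl1xr1 (-0.18), Ncoa1 (-0.23), Tbl1x (-0.38), Meis1 (-0.18), Thra (-0.060) and Fabp7 (-0.19) then turned negative. Relative to the median of its setting, Crabp2 stood at -3.57 scaled, -3.47 as deposited and -3.60 under quantile normalization, and Rlbp1 at 4.67, 4.65 and 4.63. With 1 prior variance for all signals, calls numbered 1919 higher and 2097 lower, and 3 other pathway genes were higher; without a minimum 7 were. With probe sets averaged 4 pathway genes were lower. Leaving out each array in turn gave 5 to 11 higher and 2 to 3 lower pathway genes, and 2256 to 3148 higher and 2750 to 3405 lower probe sets; the lone array of a group is then assumed to vary like the other group.

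The groups share replicate numbers, but the deviations of same-numbered arrays correlated at 0.00 (r = 0.0041 across probe sets), so the numbers give no sign of pairing. With the replicate block, 3312 probe sets were higher and 3861 lower, and 4 other pathway genes were lower. Crabp1 joined Crabp2 and Rlbp1 past the threshold with the block, as deposited, and without E14.5 replicate 1. Of 159 differences of member probe sets under other settings, many of which cannot move a difference, 21 changed sign, none of them of Crabp1, Crabp2 or Rlbp1. The low signal of Rara, Aldh1a3, Cyp26b1 and the third Rxra probe set limits what these arrays show of them; the causes of these changes were not tested.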
